A study of Mus musculus with 2 samples.

Results

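In mouse visceral adipose tissue (VAT), the fat that lines the abdominal organs, a small set of CD4 T cells carried transcripts of at least 2 of the 4 genes Gzma, Cx3cr1, Zeb2 and S1pr5 together with Ccl5. The set was chosen cell by cell from raw counts of unique molecular identifiers (UMIs, each standing for 1 captured transcript). A cell entered it with at least 1 UMI of 2 or more of the 4 markers, at least 1 UMI of Ccl5, and 0 UMIs of Fcer1g, Klrk1 and Foxp3, which mark innate-like and regulatory cells. It held 101 of 13191 cells, 73 from the CD27_KO library and 28 from the WT library. The counts of these 8 genes made the set, so their levels are given as a description only.

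The study compared mice lacking the costimulatory receptor CD27 (CD27_KO) with wild-type mice (WT), both labelled C57BL/6. The VAT was freed of adipocytes, cells of the remaining stromal vascular fraction that bore TCRb and CD4 were sorted, and mice were pooled (10, per the labels). A pool hides the spread between its mice. There was 1 droplet library per genotype. The labels give no age, sex or diet for these mice, and the same genotype entry stands for both libraries, so the groups come from the sample titles.

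The libraries held 6893 barcodes with 20191704 UMIs (CD27_KO) and 6398 barcodes with 16628623 UMIs (WT). A cell was kept if it showed 500 genes or more and its mitochondrial share did not pass 10%. This left 6853 CD27_KO and 6338 WT cells, with medians of 2209 and 1945.5 UMIs. Having 1 library per genotype, the design gives no spread between mice, and no test was made. All intervals are exact 95% intervals that cover counting error only. The limit given beside a count of 0 is not such an interval but 3 counts of the total. In all, 12 barcodes occurred in both libraries, and 0 of them were in the set.

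Cytotoxic lymphocytes kill target cells by releasing granules that hold granzymes, which are serine proteases, and perforin, which forms pores through which granzymes enter. Some CD4 T cells take on this program, and in mice and humans such cells carry the fractalkine receptor CX3CR1 and the repressor ZEB2. S1PR5 is a sphingosine-1-phosphate receptor that draws effector and natural killer (NK) cells out of tissue into blood. CCL5 is a chemokine that memory and effector T cells store and secrete.

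The 4 marker genes lie apart in the mouse genome (mm10, with gene spans of GENCODE vM21). Gzma spans chr13:113093825-113100981 and Zeb2 chr2:44983632-45117395. Cx3cr1 spans chr9:119901616-120069879 and S1pr5 chr9:21242912-21248443. All are read from the minus strand. The stretch upstream of a RefSeq start is shown for Gzma, which gives the cells their name, and for Cx3cr1, which most cells of the set carried. Each is the 250 bases before the start in RefSeq's GRCm38.p6 annotation, written 5′ to 3′ on the minus strand. Gzma is at chr13:113100982-113101231 and Cx3cr1 at chr9:120068297-120068546. The Cx3cr1 window lies inside the GENCODE span given above, as the RefSeq start is not the outer end of that span. Capitals mark a match to the RUNX motif.
Gzma: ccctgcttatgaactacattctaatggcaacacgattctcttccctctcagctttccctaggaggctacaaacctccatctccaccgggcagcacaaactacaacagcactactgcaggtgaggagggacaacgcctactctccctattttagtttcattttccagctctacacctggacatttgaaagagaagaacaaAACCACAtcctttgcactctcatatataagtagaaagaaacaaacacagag
Cx3cr1: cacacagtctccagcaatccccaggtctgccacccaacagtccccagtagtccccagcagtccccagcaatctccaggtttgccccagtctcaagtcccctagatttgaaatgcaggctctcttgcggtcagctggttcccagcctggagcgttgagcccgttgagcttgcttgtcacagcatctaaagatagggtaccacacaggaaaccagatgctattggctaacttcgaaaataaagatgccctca

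Runx3 and T-bet (the product of Tbx21) are known regulators of cytotoxic T cells, so both strands of these windows were searched for the letters TGTGGTT (RUNX; reverse AACCACA) and GGTGTGA (T-box; reverse TCACACC). The Gzma window held 1 RUNX match, on the reverse strand, and the windows of Cx3cr1 and S1pr5 held 0. The T-box letters were in 0 of these 3 windows. Of 32536 windows of this length upstream of mouse genes, 4.41% held the RUNX letters and 3.33% the T-box letters. A match is a string of letters and not a shown binding site.

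The set was 1.07% of kept cells in CD27_KO (95% interval 0.836% to 1.34%), against 0.442% in WT (0.294% to 0.638%), a ratio of 2.41 (1.54 to 3.87). Other Ccl5-positive cells that passed the same 3 exclusions were also more frequent in CD27_KO, at 44.9% of kept cells against 32.0% in WT. Within all Ccl5-positive cells that passed the exclusions, the set was 2.32% in CD27_KO (73 of 3148) and 1.36% in WT (28 of 2055), a ratio of 1.70 (1.09 to 2.73).

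The ratio moved with depth and with the exclusions. When each cell was first thinned to 1300 UMIs, 45 of 6798 CD27_KO cells and 24 of 5791 WT cells met the rule, and the interval of the ratio of 1.60 then included 1 (0.953 to 2.74). Of the cells with at least 2 markers and Ccl5, the exclusions removed 8 of 81 in CD27_KO and 19 of 47 in WT. Klrk1, which encodes the activating receptor NKG2D, was present in 7 of those 8 CD27_KO cells and in 15 of those 19 WT cells. Without the requirement on Fcer1g and Klrk1 there were 80 CD27_KO and 42 WT cells, a ratio of 1.76 (1.20 to 2.62).

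Cells on the edge of the rule show where it cuts. Exactly 2 UMIs over the 4 markers brought 11 CD27_KO and 5 WT cells into the set. Just outside it, 134 CD27_KO and 78 WT cells had 1 marker, and 2941 CD27_KO and 1949 WT cells had 0. Cells with 2 markers held 13942 counts per 1000000 UMIs (CPM) of Ccl5 in CD27_KO and 16755 in WT, and cells with 3 markers 20035 and 34508. Cells with 1 marker held 3817 CPM in CD27_KO and 5930 in WT, and cells with 0 markers 2842 and 4366. Ccl5 is a gene of the rule and was required to be at least 1 in all of these cells, so its levels are a description only.

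Cx3cr1 and Zeb2 made up the most frequent pair, found alone in 24 of the 73 CD27_KO cells and 8 of the 28 WT cells. Gzma, Cx3cr1 and Zeb2 together marked 7 CD27_KO and 8 WT cells. All 4 markers were seen in 8 CD27_KO cells and in 0 of 28 WT cells, where the limit of 3 counts allows up to 10.7%. S1pr5 was present in 29 CD27_KO and 8 WT cells.

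**Figure D1:**
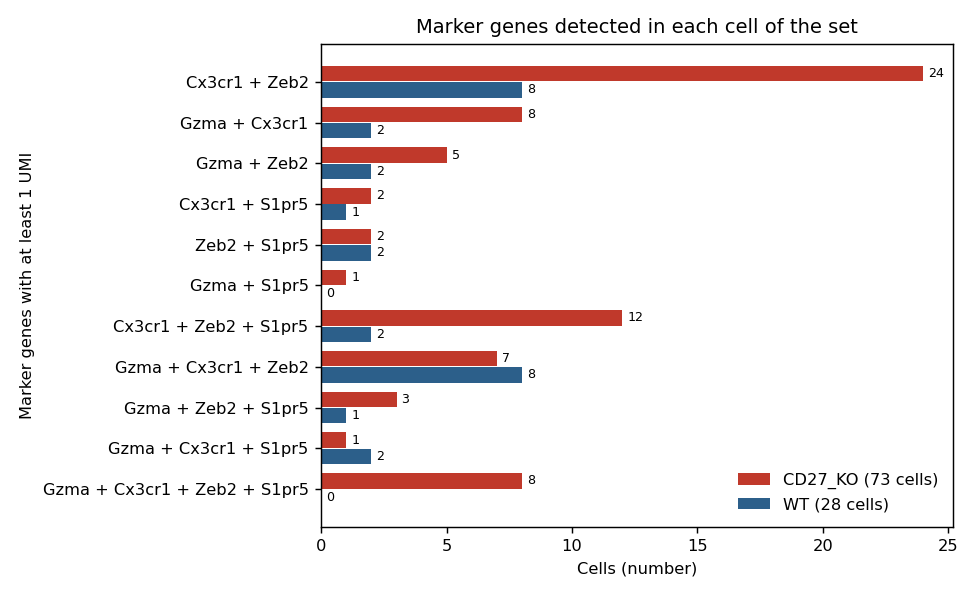
Number of cells (x axis) with each combination of marker genes (y axis) in CD27_KO (red) and WT (blue). The pair Cx3cr1 and Zeb2 is the longest bar in CD27_KO with 24 cells, and all 4 markers occur in 8 CD27_KO and 0 WT cells.

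Co-detection of the markers is described among the 3148 CD27_KO and 2055 WT cells that had Ccl5 and passed the exclusions, whatever their number of markers. The set was made with these genes, so the shares are a description and lend it no support. In CD27_KO, 48.0% of the 50 such cells with Gzma had Cx3cr1, against 1.65% of cells without Gzma. In WT these shares were 57.1% of 21 cells and 0.836%. Of the cells with S1pr5, 83.3% of 30 in CD27_KO and 62.5% of 8 in WT had Zeb2. Zeb2 was the most widespread marker among them: 164 CD27_KO and 89 WT cells had it, and of these 14% and 12.4% had Gzma.

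Gzma was strong where it was seen. It was detected in 33 of 73 CD27_KO cells, with a median of 6 and at most 46 UMIs in those cells, and in 15 of 28 WT cells, with a median of 7 and at most 32. Summed over the set it reached 1393 CPM (1245 to 1553) in CD27_KO and 1595 CPM (1338 to 1887) in WT. So 40 CD27_KO and 13 WT cells of the set had no Gzma UMI and entered through the other markers. Ccl5 ranged from 2 to 145 UMIs per cell in CD27_KO (median 44) and from 24 to 160 in WT (median 61.5). At its highest it was 9.61% of a cell's UMIs in CD27_KO and 9.45% in WT.

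The label of cytotoxic cells was checked against genes that the rule did not use. Nkg7, which encodes a granule membrane protein of cytotoxic lymphocytes, had 330 UMIs in 67 of 73 CD27_KO cells and 137 UMIs in 27 of 28 WT cells. It was also seen in 56.3% of the other Ccl5-positive cells in CD27_KO and 69.5% in WT. Prf1, which encodes perforin, had 0 UMIs in CD27_KO, where the limit of 3 counts allows up to 12.9 CPM, and 2 UMIs in 2 cells in WT. Gzmb, the granzyme of activated killer cells, had 12 UMIs in 9 CD27_KO cells and 6 UMIs in 4 WT cells. Gzmk had 5 and 3 UMIs, and Gzmm 1 and 2. Of these genes only Nkg7 was seen in most cells, and perforin was at or near 0, so the cells are called here by their marker genes.

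The set was made of T cells by its receptor genes. The 12 T cell identity genes summed to 6990 CPM in CD27_KO, against 6704 in the other Ccl5-positive cells, and to 7178 CPM in WT, against 7001. None of the 12 was 2-fold apart from the other Ccl5-positive cells in both libraries. Cd4 was detected in 30 of 73 CD27_KO cells and 9 of 28 WT cells, 41.1% and 32.1%. In the other Ccl5-positive cells these shares were 35.4% and 28.8%.

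Markers of other cell types were few in UMIs. Cd8a had 0 UMIs in both libraries, and Cd8b1 was seen in 1 cell of each, with 5 UMIs in CD27_KO and 1 in WT. That CD27_KO cell had all 4 markers and 0 Cd4 UMIs, and the WT cell had 5 Cd4 UMIs. Trdc of the gamma delta receptor, Zbtb16 of NKT cells, and all 5 B cell genes had 0 UMIs in the set. Of the 8 NK and innate lymphoid genes, 4 were at 0 in each library, Klra8 and Fcgr3 among them in both. Their sum was 89.99 CPM in CD27_KO and 152 CPM in WT, against 207 and 153 CPM in the other Ccl5-positive cells. That list holds Il1rl1 and Kit, which other lymphocytes also carry. Ncr1, the NK receptor NKp46, had 3 UMIs in 2 CD27_KO cells and 0 in WT. The 4 NKT genes summed to 47.1 CPM in CD27_KO and 35.2 in WT, above 11.3 and 24.6 in the other Ccl5-positive cells, on 11 and 3 UMIs. The 2 CD8 genes summed to 21.4 CPM in CD27_KO and 11.7 in WT, above 9.12 and 8.09. The 6 gamma delta genes summed to 34.3 CPM in CD27_KO, above 26.7, and to 23.5 in WT, below 48.9. The 9 myeloid genes summed to 150.0 CPM in CD27_KO and 129 in WT, below 161 and 212. The part of such cells in the results was not tested. The 10 stromal, endothelial, red cell and platelet genes had 0 UMIs in CD27_KO and 4 in WT.

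Cells with very high UMI counts can be doublets, and the deepest cell held 15884 UMIs in CD27_KO and 16759 in WT, against medians of 2058 and 1850.5. The deepest 2 cells gave 10.8% of the set's UMIs in CD27_KO and 31.5% in WT, so WT sums lean on them.

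**Figure D2:**
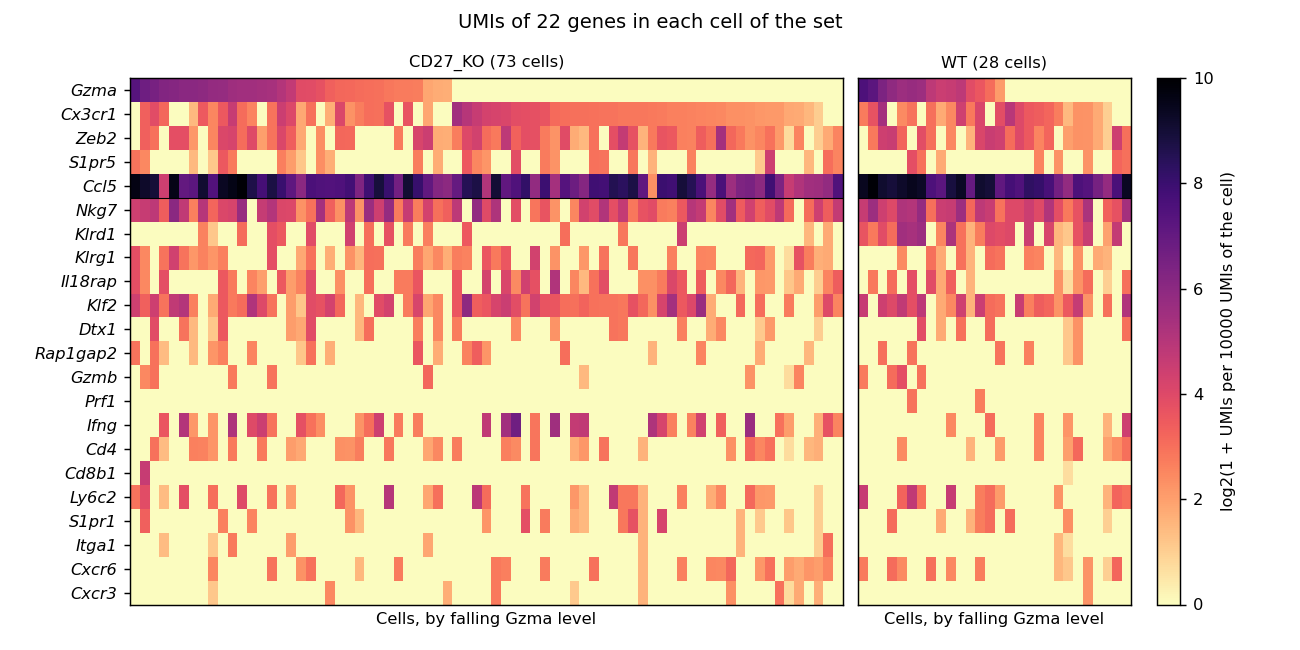
Level of 22 genes (rows; log2 of 1 plus UMIs per 10000 UMIs of the cell, as colour) in every cell of the set (columns), CD27_KO left and WT right, with the genes used to choose the cells above the black line. Nkg7 fills nearly all columns in both panels, Prf1 is almost blank, and Klrd1 fills 17 of 73 CD27_KO and 23 of 28 WT columns.

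The set was then compared, within each library, with the other Ccl5-positive cells, those that passed the same exclusions but had fewer than 2 markers (3075 CD27_KO and 2027 WT cells). A gene was counted as apart if the ratio of its CPM was at least 2-fold in the same direction in both libraries, with at least 20 UMIs over both sets of cells in each library. This was so for 134 of 9266 genes on the high side, 1.45% of those tested, rule genes aside. On the low side it was so for 15 of the 1894 genes with enough UMIs to be called lower, 0.792%. The median log2 ratio of all genes was 0.02 in CD27_KO and 0.18 in WT.

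Klrd1, which encodes CD94, the partner chain of the NKG2 receptors, stood furthest on the high side. It had 30 UMIs in CD27_KO cells of the set and 77 in WT cells of the set, at 129 and 903 CPM. The other Ccl5-positive cells held 5.43 CPM in CD27_KO and 20.7 CPM in WT. The log2 ratio was 4.57 (3.87 to 5.24) in CD27_KO and 5.45 (5.01 to 5.88) in WT. This rank is among genes not treated as groups, by the smaller ratio of the 2 libraries. It holds against the other Ccl5-positive cells only, from which cells with Klrk1 or Fcer1g were left out.

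Of the 26 NK receptor genes, 8 were tested and 4 were higher, Klrd1, Klrg1, Slamf7 and Tyrobp. Their median log2 ratio was 1.61 in CD27_KO and 1.31 in WT. Klrg1, an inhibitory receptor of late effector cells, had log2 ratios of 2.07 in CD27_KO and 1.17 in WT. Slamf7, an adhesion and activating receptor, had 2.32 and 2.16. Tyrobp, the adaptor DAP12, passed the fold on 2 UMIs in each library, too few for a firm value. In each library 14 of the 26 genes had 0 UMIs in the set. Fcgr3 and Klra8 were among them.

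Of 22 cytotoxic granule genes, Gzma aside, 15 were tested and 3 were higher. Nkg7 had log2 ratios of 1.74 (1.58 to 1.91) in CD27_KO and 1.25 (1.0 to 1.5) in WT. Serpinb6b, a protease inhibitor, had 1.36 in CD27_KO and 1.06 in WT, and Stx11, a fusion protein of granule release, had 1.03 and 1.83. The intervals of Serpinb6b in WT and of Stx11 in CD27_KO included 0. The list's median was 0.73 in CD27_KO and 0.77 in WT. Gzmb had a log2 ratio of 2.30 in CD27_KO and 0.77 in WT, so it passed the fold in CD27_KO but not in WT. Serpinb9, which protects killer cells from granzyme B, had 0.87 and 1.34. Fasl, the death ligand, had 0.73 and 1.17.

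Of 16 effector transcription factors, 15 were tested and Runx3 and Klf2 were higher. Klf2, which keeps trafficking genes on in circulating T cells, had 191 UMIs in 60 of 73 CD27_KO cells and 80 UMIs in 23 of 28 WT cells. Its log2 ratio was 2.07 (1.85 to 2.29) in CD27_KO and 1.5 (1.16 to 1.83) in WT. Runx3 had ratios of 1.07 and 1.48. Tbx21 had 1.25 in CD27_KO and 0.85 in WT, and its interval in WT included 0 (−0.62 to 1.99). Eomes, the other T-box factor of killer cells, had 0 UMIs in CD27_KO and 1 in WT. Hopx had 0.71 and 0.92, and Klf3 had 0.83 and 1.03.

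Of the 11 memory and naive transcription factors, 11 were tested and 0 were 2-fold lower in both libraries, out of 5 that could be. Their median log2 ratio was −0.71 in CD27_KO and −0.76 in WT, against 0.02 and 0.18 for the tested genes that had a ratio. Over the genes with enough UMIs to be called lower, the medians were 0.001 and 0.0007. In the set, 1 of the 11 had 0 UMIs in CD27_KO and 3 had 0 in WT. Tcf7, which encodes the memory factor TCF-1, had −1.34 in CD27_KO and −0.85 in WT, and Foxp1 had −0.61 and −0.19.

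Recirculation genes did not move as a block. Of 18, 17 were tested and Klf2 alone passed the fold. S1pr1, the receptor that takes T cells out of lymphoid tissue, had log2 ratios of −0.35 in CD27_KO and −0.31 in WT, both with intervals that included 0. Ccr7, a receptor for lymph node entry, had 0 UMIs in CD27_KO and 5 UMIs in WT. Itgal and Itgb2, the chains of the integrin LFA-1, had 0.82 and 1.25 in CD27_KO and 0.84 and 0.70 in WT. Il7r, the IL-7 receptor, had −1.20 in CD27_KO and −0.14 in WT.

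Of 16 tissue residency genes, 14 were tested, 0 were higher and 1 was lower. That gene was Xcl1, which encodes the chemokine lymphotactin, with log2 ratios of −2.06 in CD27_KO and −2.67 in WT, on 3 and 1 UMIs. Itga1, the collagen-binding integrin CD49a, had −0.86 in CD27_KO and −1.52 in WT, on 11 and 2 UMIs. Rgs2 had −1.77 and −0.81, Cd69 had −1.30 and −0.18, and Cxcr6 had −0.65 and 0.02. The list's median was −0.75 in CD27_KO and −0.26 in WT.

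Of 14 type 1 effector genes, 14 were tested, 2 were higher and 1 was lower. Il18rap, a chain of the IL-18 receptor, had 92 UMIs in 43 CD27_KO cells and 18 UMIs in 13 WT cells. Its log2 ratio was 2.27 (1.94 to 2.58) in CD27_KO and 1.98 (1.20 to 2.66) in WT. Il12rb2, a chain of the IL-12 receptor, had 1.55 and 1.69. Cxcr3, the chemokine receptor of Th1 cells, was lower in the set. It had 14 UMIs in 11 of 73 CD27_KO cells and 1 UMI in 1 of 28 WT cells, with log2 ratios of −1.52 and −3.69, both with intervals apart from 0. In the other Ccl5-positive cells 38.6% of CD27_KO and 31.2% of WT cells had Cxcr3.

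Other genes furthest on the high side belonged to no list. Dtx1, which encodes the Notch regulator Deltex-1, had 28 UMIs in 23 CD27_KO cells and 9 UMIs in 7 WT cells, with log2 ratios of 4.34 (3.63 to 5.01) and 3.37 (2.17 to 4.39). Apobec2, of the cytidine deaminase family, had 4.39 in CD27_KO and 3.57 in WT, on 12 and 4 UMIs. Rap1gap2, which shuts off the GTPase Rap1, had 3.03 and 3.07. Plek, the protein kinase C substrate pleckstrin, had 2.70 and 2.89, and Lpin1, a phosphatidate phosphatase, had 2.80 and 2.50. D1Ertd622e, Tmem37, Car5b, Borcs7, Gem, Nipal3 and Plod3 completed the 15 furthest. The smaller of their log2 ratios over the 2 libraries lay between 1.80 and 2.63, and Plod3 rested on 3 UMIs in CD27_KO and 2 in WT. In WT the intervals of Tmem37, Borcs7 and Plod3 included 0.

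The low side held 15 genes. Beside Xcl1 and Cxcr3 they held the receptors Gpr183, Gpr65 and P2ry10, the chemokine Cxcl2, Slamf6, and Cblb, a ubiquitin ligase that limits T cell activation. Gpr183, an oxysterol receptor, had −1.57 in CD27_KO and −1.08 in WT, and Gpr65, an acid-sensing receptor, had −1.10 and −2.28. Cxcl2 had 0 UMIs in CD27_KO and 12 UMIs in 1 WT cell. Rcbtb2, Hilpda, Itm2c, Cebpb, Zcchc10, Inpp4b and Etnk1 were the others, with −1.55 to −1.02 in CD27_KO and −1.91 to −1.0 in WT. For Itm2c, Zcchc10 and Etnk1 the WT interval included 0.

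**Figure D3:**
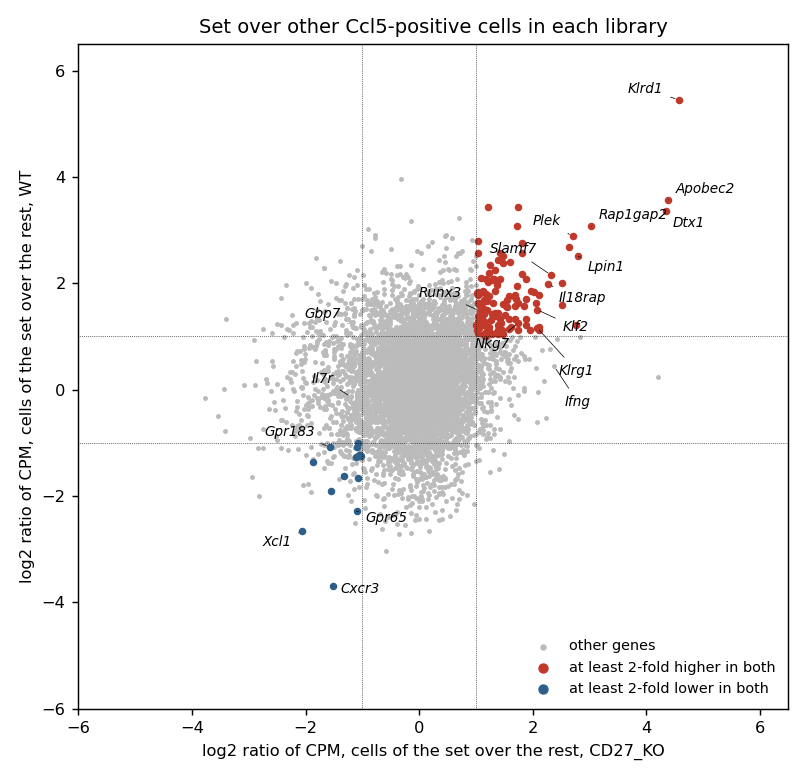
Log2 ratio of CPM in the set over the other Ccl5-positive cells for 6933 genes with UMIs in the set in both libraries, CD27_KO on the x axis and WT on the y axis, without the genes of the rule; dotted lines mark 2-fold. Klrd1 lies furthest at the upper right, at 4.57 in CD27_KO and 5.45 in WT, and Cxcr3 and Xcl1 lie at the lower left.

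The other lists held few genes past the fold. Of 13 genes of the TNF receptor family and costimulation list, 10 were tested and Tnfrsf25, the receptor for TL1A, was higher, at 1.03 in CD27_KO and 1.38 in WT. Of the T cell receptor early response list 1 of 13 tested was higher, Egr3, on 6 and 2 UMIs. Slamf6 was the lower gene of 6 tested in the follicular helper and memory list. Of 5 chemokine genes tested, Xcl1 and Cxcl2 were lower. In the cell cycle (13 tested), interferon response (10), S100, annexin and galectin (12), type 2 and alarmin (8), regulatory T cell (8), inhibitory receptor (5) and type 17 (2) lists, 0 genes were 2-fold apart in both libraries. Lgals1 had log2 ratios of 1.23 in CD27_KO and 0.46 in WT.

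Klrd1 and Dtx1 were followed across further groups of cells. Ccl5-positive cells with Ly6c2, other Ccl5-positive cells with P2rx7 or Itga1, and Ccl5-positive cells with Klrk1 or Fcer1g were taken as neighbours. Cells with Ccr7 and Lef1 but no Ccl5 or Foxp3 served as cells that should lack effector genes. In CD27_KO, Klrd1 stood at 129 CPM in the set, below the 231 CPM of the Klrk1 or Fcer1g cells, which the rule keeps out of the set. In WT it stood at 903 CPM in the set, above the 258 CPM of the Klrk1 or Fcer1g cells. Its level in the Ly6c2 cells was 5.78 CPM in CD27_KO and 26.8 CPM in WT. Dtx1 stood at 120 CPM in CD27_KO and 106 CPM in WT in the set, against 12.6 and 13.1 CPM in the Klrk1 or Fcer1g cells. In WT, Klrd1 and Dtx1 were thus higher in the set than in the Klrk1 or Fcer1g cells, and in CD27_KO only Dtx1 was.

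Klf2 in the set was near its level in the cells with Ccr7 and Lef1, 819 against 794 CPM in CD27_KO and 938 against 821 CPM in WT. The Ly6c2 cells held 175 CPM of Klf2 in CD27_KO and 294 CPM in WT. S1pr1 did not follow Klf2. It stood at 107 CPM in CD27_KO and 164 CPM in WT in the set, and at 679 and 518 CPM in the cells with Ccr7 and Lef1. Gzma was seen in 0.617% of the Ccr7 and Lef1 cells in CD27_KO and in 0 of 394 in WT. Nkg7 was seen in 91.8% of the set in CD27_KO and 96.4% in WT. It was also common in the other Ccl5-positive cells, at 56.3% in CD27_KO and 69.5% in WT. In the Klrk1 or Fcer1g cells, which were deeper (medians of 3706 and 3064 UMIs), it was seen in 83.7% and 85.4%. In the Ccr7 and Lef1 cells it was seen in 1.85% in CD27_KO (median 2198 UMIs) and 3.30% in WT (median 2061.5 UMIs).

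**Figure D4:**
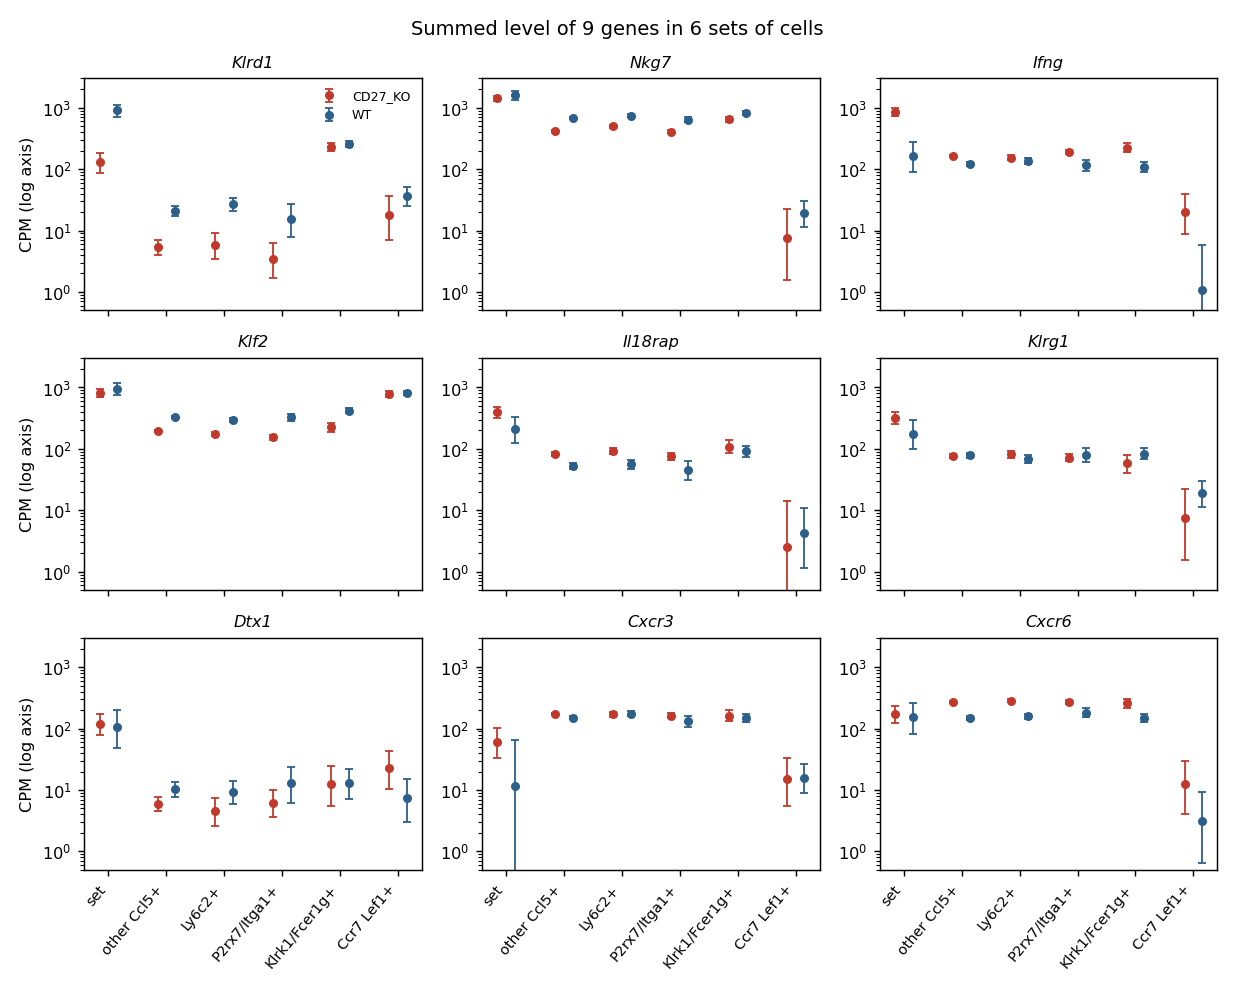
Summed level of 9 genes (CPM, log axis) in 6 sets of cells, CD27_KO in red and WT in blue, with exact 95% counting intervals as bars. In the first column of each panel is the Gzma, Cx3cr1, Zeb2 and S1pr5 set, where Klrd1 differs most between the libraries, at 129 CPM in CD27_KO and 903 CPM in WT, and Ifng is at 849 and 164 CPM.

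Cells of the set with and without Gzma were set side by side. Ccl5 was at 23415 CPM in Gzma-positive CD27_KO cells and 12255 CPM in Gzma-negative ones, and at 40876 and 12541 CPM in WT. Klrd1 was seen in 11 of 33 Gzma-positive and 6 of 40 Gzma-negative CD27_KO cells, and in 14 of 15 and 9 of 13 WT cells. Its level was 208 against 72.99 CPM in CD27_KO and 1500 against 544 CPM in WT. Ifng was at 560 against 1051 CPM in CD27_KO and 62.5 against 225 CPM in WT. In WT the level of Ifng rested on 2 against 12 UMIs. Both libraries thus had a higher summed level of Klrd1 in the cells with Gzma, and of Ccl5, which as a gene of the rule is a description only. Ifng was seen in 48.5% and 47.5% of CD27_KO cells with and without Gzma. Median depths were 1972 and 2160 UMIs in CD27_KO and 1694 and 2436 UMIs in WT. Both of the deepest WT cells, with 16759 and 10125 UMIs, were Gzma-negative, out of 53266 UMIs in the Gzma-negative WT cells. They held 2 and 3 UMIs of Klrd1 and 6 and 2 UMIs of Ifng, so the WT levels without Gzma lean on them.

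Few T cell receptor segments were captured in these 3′ libraries. A Trbv segment was seen in 10 of 73 CD27_KO cells, over 6 segments, and in 2 of 28 WT cells, over 2. A Trav segment was seen in 21 CD27_KO cells, over 16 segments, and in 3 WT cells, over 3. Trav5-4 was the most seen, in 7 CD27_KO cells of the set. It was also the most seen among the other Ccl5-positive CD27_KO cells, in 148. No clonal structure can be read from so few cells.

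Within the set, CD27_KO and WT cells were compared by summed UMIs, 233349 in CD27_KO and 85265 in WT. The targeted gene Cd27 had 0 UMIs in CD27_KO and 10 UMIs in 5 WT cells. Of 2429 genes with at least 20 UMIs over both libraries, 237 (9.76%) passed 2-fold on the high side in CD27_KO and 68 (2.8%) passed it on the low side. The counting interval lay apart from 0 for 80 of the higher and 31 of the lower genes. The balance of the 2 sides depended on the minimum: with none, 903 genes were higher and 1186 lower. Over the same 2429 genes, the other Ccl5-positive cells had 9 (0.371%) higher and 7 (0.288%) lower, from far more UMIs. Most genes past the fold in the set therefore rest on few counts, and those below have intervals apart from 0 unless said.

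Klrd1 was lower in CD27_KO. It had 30 UMIs in 17 of 73 CD27_KO cells and 77 UMIs in 23 of 28 WT cells, a log2 ratio of −2.81 (−3.47 to −2.19). No CD27_KO cell had more than 5 Klrd1 UMIs, and WT cells had up to 10. At 1300 UMIs per cell it was seen in 13.7% of CD27_KO and 63.0% of 27 WT cells, with 1 WT cell too shallow to be thinned. Klrd1 was also lower in the other Ccl5-positive CD27_KO cells, at a log2 ratio of −1.93. There its share of cells was 1.17% in CD27_KO and 3.40% in WT, below the 4.32% and 6.85% of the cells with Ccr7 and Lef1. In the Klrk1 or Fcer1g cells its level was 231 CPM in CD27_KO and 258 CPM in WT.

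Klrd1 lies on chromosome 6 (chr6:129591782-129598775), 4.36 Mb from the start of the targeted gene Cd27 (chr6:125232622-125237010). Klrk1, used to choose the set, lies beside it at chr6:129610323-129623864. Klrg1 lies on the other side of Cd27, at chr6:122270596-122282882, and was at 321 CPM in CD27_KO and 176 CPM in WT in the set, a log2 ratio of 0.87 (0.06 to 1.78). The part of this linkage in the Klrd1 and Klrk1 counts was not tested. Klrc1, the NKG2A chain that pairs with CD94, had 0 UMIs in CD27_KO and 8 UMIs in 4 WT cells, under the minimum for a ratio.

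Ifng, the Th1 cytokine, was higher in CD27_KO. It had 198 UMIs in 35 of 73 CD27_KO cells, up to 23 in 1 cell, and 14 UMIs in 6 of 28 WT cells, up to 6 in 1 cell. The log2 ratio was 2.37 (1.59 to 3.27), and in the other Ccl5-positive cells it was 0.44. At 1300 UMIs per cell Ifng was seen in 38.4% of CD27_KO and 7.41% of WT cells of the set. The 3 highest cells gave 31.3% of the CD27_KO UMIs, so the level did not rest on 1 cell. Without thinning, the set's Ifng share in WT (21.4% of cells) was close to that of the other Ccl5-positive cells (21.2%). In CD27_KO these shares were 47.9% and 25.6%. At 1300 UMIs per cell the other Ccl5-positive cells were at 13.1% in WT, above the set's 7.41%, which rested on 2 of 27 cells. In CD27_KO they were at 15.4%, below the set's 38.4%.

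Of 14 type 1 effector genes, 8 had enough UMIs and Ifng and Il2 were higher, with a list median of 0.51 in the set and 0.26 in the other Ccl5-positive cells. Il2 rested on 18 CD27_KO and 2 WT UMIs, and its interval included 0. Il18rap had a log2 ratio of 0.90 (0.16 to 1.72). Among effector transcription factors, Bhlhe40 and Prdm1 were the 2 of 11 past the fold. Bhlhe40, which sustains cytokine production, had 96 UMIs in CD27_KO and 15 in WT, a log2 ratio of 1.23 (0.43 to 2.12). In the other Ccl5-positive cells it was 0.85. Prdm1, which encodes Blimp-1, had 24 UMIs in CD27_KO and 1 in WT, so it met the minimum through CD27_KO alone.

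The granule genes did not differ by 2-fold in any of the 7 that had enough UMIs. Gzma itself had a log2 ratio of −0.20 (−0.49 to 0.10). Nkg7 had 330 UMIs in CD27_KO and 137 in WT, at 1414 and 1607 CPM. The median of the 7 was −0.18, against 0.08 for all genes tested. Nkg7 in the other Ccl5-positive cells stood at 422 CPM in CD27_KO and 673 CPM in WT.

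Lgals3, which encodes galectin-3, had 108 UMIs in 44 CD27_KO cells and 8 UMIs in 6 WT cells, a log2 ratio of 2.30 (1.27 to 3.55). With the rule applied to thinned cells it was 0.90 (−0.01 to 1.90). S100a6 was lower, at 1230 CPM in CD27_KO and 2580 CPM in WT, a log2 ratio of −1.07 (−1.33 to −0.81). Of its 220 UMIs in WT, 88 came from 1 cell. S100a6 was at −2.33 (−2.81 to −1.87) with the rule applied to thinned cells. Without the requirement on Fcer1g and Klrk1 it was at −0.43 (−0.63 to −0.22). P2rx7, the ATP receptor, had 39 UMIs in 24 CD27_KO cells and 4 UMIs in 2 WT cells, a log2 ratio of 1.83 (0.36 to 3.78) beside 0.97 in the other Ccl5-positive cells. Cd28 had −0.98 in the set and 0.22 in the other Ccl5-positive cells, and Il7r had −0.91 and 0.15. Of the 59 Il7r UMIs in WT, 27 came from 1 cell.

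Cell cycle genes were past the fold in 3 of 6 tested, Top2a, Pclaf and Stmn1, on the UMIs of few cells. Top2a had 29 UMIs in 5 CD27_KO cells, 25 of them in 2 cells, and 2 UMIs in 2 WT cells. Without cells above the 95th percentile of UMIs in their library it had 2 UMIs in each library. Pclaf had 32 UMIs in 4 CD27_KO cells and 0 in WT. Of 5 interferon response genes, 2 were past the fold. Ly6a was among them, with a log2 ratio of 1.25 (0.51 to 2.08) in the set and 0.56 in the other Ccl5-positive cells. With the rule applied to thinned cells Ly6a was at 0.48 (−0.56 to 1.61) in the set.

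The 10 genes furthest higher in CD27_KO were Ep400, Arrb2, Prdm1, Ccndbp1, Trat1, Hist1h2ap, Cdc26, Vamp4, Zfp260 and Sap30l. Each had 20 to 42 UMIs in CD27_KO and 1 or 2 in WT. Each thus met the minimum of 20 UMIs through CD27_KO alone, so their place on the high side is a description only. With at least 3 markers, Arrb2, Cdc26 and Zfp260 each had 10 UMIs in CD27_KO and 0 in WT, at a log2 ratio of 0.098. Sap30l was then at 1.53. Among the 10 furthest lower, beside Klrd1, Gstp1 had a log2 ratio of −1.62 in the set and −1.48 in the other Ccl5-positive cells. Areg, which encodes amphiregulin, had 3 UMIs in 2 CD27_KO cells and 22 UMIs in 2 WT cells. Rfxap, Gbp7, Fmc1, Hpf1, Ssbp1 and Nck1 had 6 to 11 UMIs in CD27_KO and 11 to 16 in WT.

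**Figure D5:**
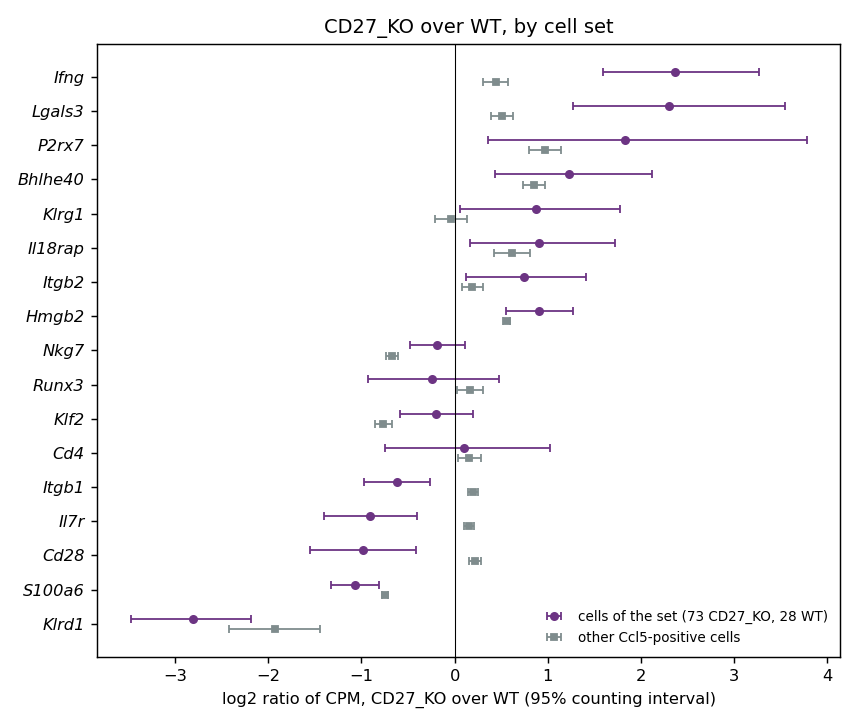
Log2 ratio of CPM in CD27_KO over WT (x axis, bars are exact 95% counting intervals) for 17 genes in the set (purple circles) and in the other Ccl5-positive cells (grey squares). Ifng lies at 2.37 in the set and 0.44 in the other cells, and Klrd1 at −2.81 and −1.93.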

How the data were processed

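The authors deposited, for each library, a matrix of raw UMI counts per gene and called cell. Per the file headers it was made with Cell Ranger 6.1.1, and the submitters' processing notes name mm10. Series text and sample protocol disagree on the version of the 3′ kit. Each matrix also lists 1 antibody feature with 0 UMIs.

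Everything else was computed here with Python 3.11.15, numpy 2.4.6, pandas 2.3.3, scipy 1.17.1 and matplotlib 3.10.9. Counts were summed over cells and scaled to CPM. Shares carry exact Clopper-Pearson intervals, sums exact Poisson intervals and ratios exact conditional intervals, all at 95%. UMIs are not independent within a cell, so intervals cover counting error only. A 0 on the lower side of a ratio was set to 3 counts. No test was made, with 1 library per group.

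Doublets were neither called nor removed; leaving out cells above the 95th percentile of UMIs is an alternative. The steps were tested on simulated Poisson counts with known fold changes, set only in genes with enough expected UMIs. Those counts held no spread between cells. The outcome therefore does not cover that spread, or changes in genes of few UMIs.

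The members and the gene lists were chosen with earlier results of these data known. List genes were named with at least 20 UMIs over the set, up to the 8 furthest and 4 most abundant of a list, plus the 15 furthest genes in each direction against the other Ccl5-positive cells and the 10 furthest between genotypes. Receptor segments, ribosomal, mitochondrial and unnamed genes were treated as groups. Low-count genes of the cytotoxic, receptor, trafficking and other cell type lists were named after their values were seen. Gene positions come from GENCODE vM21, which places 32235 of 32285 genes. H2az1, Trgc1, Trgc2 and Trgc4 were not found under these names and were not analysed here. A few genes that these rules name are not reported here.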

Additional observations from a re-analysis of the deposited data

Results flagged for a closer look

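Between the libraries, 2 genes stood on opposite sides of 0 in the set over the other Ccl5-positive cells, each with a counting interval apart from 0. With 1 library per group the difference was not tested. Gbp7, an interferon-induced GTPase, had a log2 ratio of −1.19 in CD27_KO and 1.21 in WT, on 10 and 16 UMIs in the set. Anxa2, which encodes annexin A2, had 0.48 in CD27_KO and −0.91 in WT, on 57 and 11 UMIs.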

How the results depend on the processing

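No paired analysis was possible because there is 1 library per group. The share ratio of CD27_KO over WT was above 1 under all alternatives, from 1.60 (rule after thinning) to 2.38 (without the deepest cells), with 1.97 under stricter cell filters and 2.21 with at least 3 markers. Genes higher in the set than in the other Ccl5-positive cells (134) became 244 with at least 3 markers, 249 with the rule after thinning, 77 with at least 50 UMIs and 217 with no minimum. Genes lower (15) became 6 with stricter cell filters, 46 with each cell weighted equally and 29 after thinning. Genes higher in CD27_KO within the set (237) became 121 with at least 3 markers, 106 after thinning, 31 with at least 50 UMIs and 903 with no minimum. Genes lower (68) became 29 with at least 3 markers, 110 with equal weight, 7 with at least 50 UMIs, 1186 with no minimum and 44 without the deepest cells. Fewer cells or another count minimum change how many genes can pass; other causes were not tested.

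Direction turned for few genes named. In the set over the other Ccl5-positive cells, Egr3 turned to −0.25 in CD27_KO with at least 3 markers and Cxcl2 to 1.38 in WT after thinning. In CD27_KO over WT, Prdm1 turned to −0.64 with at least 3 markers. After thinning, Top2a turned to −0.58, Stmn1 to −1.90 and Jun to −0.99. Without the deepest cells, Top2a turned to −1.58 and Stmn1 to −1.0. Hist1h2ap turned to −2.57 without the requirement on Fcer1g and Klrk1. With equal weight, Stmn1 turned to −0.13 and Jun to −0.89. Klrd1 stayed between −3.46 and −2.09 and Ifng between 2.09 and 3.82 over these alternatives, and Areg came to −0.51 without the requirement on Fcer1g and Klrk1. The 28 WT cells set the precision.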
